A study of Mus musculus with 6 samples.

Results

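The stathmins (Stmn1, Stmn2, Stmn3 and Stmn4) and the doublecortin family (Dcx, Dclk1 and Dclk2) encode microtubule regulators of neurons, and their transcripts were followed here in mouse neurons in which the phospholipase gene Pla2g4e had been silenced. The 7 genes were picked by symbol from the 55357 genes of the count files, and all 7 were among the 21876 genes that had at least 6 reads in at least 1 library and were tested. Stmn1 and Dcx were down-regulated by the knockdown, Stmn2, Stmn3, Stmn4, Dclk1 and Dclk2 did not pass the threshold, and Stmn4 and Dclk1 had higher means in the silenced cultures. In the fit that pairs libraries by replicate number, in which more of all tested genes passed, Stmn3 was also down-regulated and Stmn4 was up-regulated.

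Stathmins bind free tubulin dimers and promote the shrinkage of microtubules, and phosphorylation of the protein releases the tubulin. Stmn1 is cytosolic, whereas Stmn2, Stmn3 and Stmn4 carry a palmitoylated N-terminal extension that anchors them to membranes of the Golgi and of growth-cone vesicles. Doublecortin (Dcx) has the opposite action: its DCX domains bind between protofilaments and stabilize the microtubule, and it marks migrating and young neurons. The doublecortin-like kinases Dclk1 and Dclk2 join DCX domains to a protein kinase domain, and Dclk1 also gives shorter forms that lack one of these parts.

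The series comprised 6 poly(A) RNA libraries of primary cortical and hippocampal neurons from wild-type C57BL/6N mouse embryos at E18. The 3 shCtrl libraries came from cultures given a lentivirus with a scrambled short hairpin RNA (shRNA), and the 3 shPla2g4e libraries from cultures given the same vector with the hairpin sh2 against Pla2g4e. All cultures carried a lentivirus, were transduced at DIV4 and were collected at DIV14 (DIV, days in vitro), so that no library shows untransduced neurons and 1 hairpin stands for the knockdown. The labels do not say whether replicates were separate cultures or embryos, and the p-values therefore measure the spread between these libraries, which may be technical.

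The hairpin sequence is shown because every contrast of the series rests on it. Its target lies at GRCm38 chr2:120182753-120182771 on the minus strand, in coding sequence of exon 11 of the 20 exons of the Pla2g4e transcript, at transcript positions 1495 to 1513. Capitals mark the part that pairs with bases 2 to 8 of the guide strand (the seed), and in the guide the seed itself.
sh2 target in Pla2g4e: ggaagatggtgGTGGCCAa
sh2 guide strand: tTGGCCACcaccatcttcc
Pla2g4e was at 38.0, 35.1 and 35.4 CPM (counts per 1000000 reads, library sizes scaled by the TMM method) in shCtrl replicates 1 to 3, and at 21.8, 14.1 and 18.7 CPM in shPla2g4e replicates 1 to 3. The groups did not overlap, and the log2 fold change was −0.99 (SE 0.13; adjusted p = 1.24e-04, edgeR quasi-likelihood test with Benjamini-Hochberg adjustment over all genes tested). Each library held between 17054717 and 23570180 counted reads, of which 2.75% to 3.79% fell on mitochondrial genes, and the 7 genes had between 2528 and 46521 reads each in every library.

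All 12 pan-neuronal markers were tested, and their summed level was 6134 to 6772 CPM in shCtrl and 5697 to 6160 CPM in shPla2g4e. Tubb3, the neuronal beta-tubulin, had the lowest fold change of that list, −1.68 on the log2 scale (adjusted p = 3.68e-08, edgeR), and Nefl, a neurofilament subunit, the highest, 0.48 (adjusted p = 0.00142, edgeR). The cultures also held glial transcripts. The 10 astrocyte markers summed to 2978 to 3805 CPM in shCtrl and 2051 to 3244 CPM in shPla2g4e, and the endothelial marker Cldn5 and the mural marker Kcnj8 were at 0 reads in all 6 libraries.

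Across all tested genes at an adjusted p of 0.01 (edgeR), 876 were down-regulated and 543 were up-regulated. Of the 7 members, 2 were down-regulated, where 4.0% of all tested genes were, and 0 were up-regulated, where 2.48% were (6.49% in either direction). All 7 were well expressed, and among the 10908 genes whose log2 CPM averaged 3 or more the shares were 7.61% down-regulated and 3.32% up-regulated. A log2 fold change below 0 was found for 5 of the 7, against 46.5% of all tested genes that were lower, and the median log2 fold change was −0.19 for the members and 0.03 for all tested genes. The 3 libraries of one group did not overlap with the 3 of the other for 4 of the 7 members, all lower in shPla2g4e, and 14.6% of all tested genes were lower without overlap (30.0% lower or higher).

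**Figure D1:**
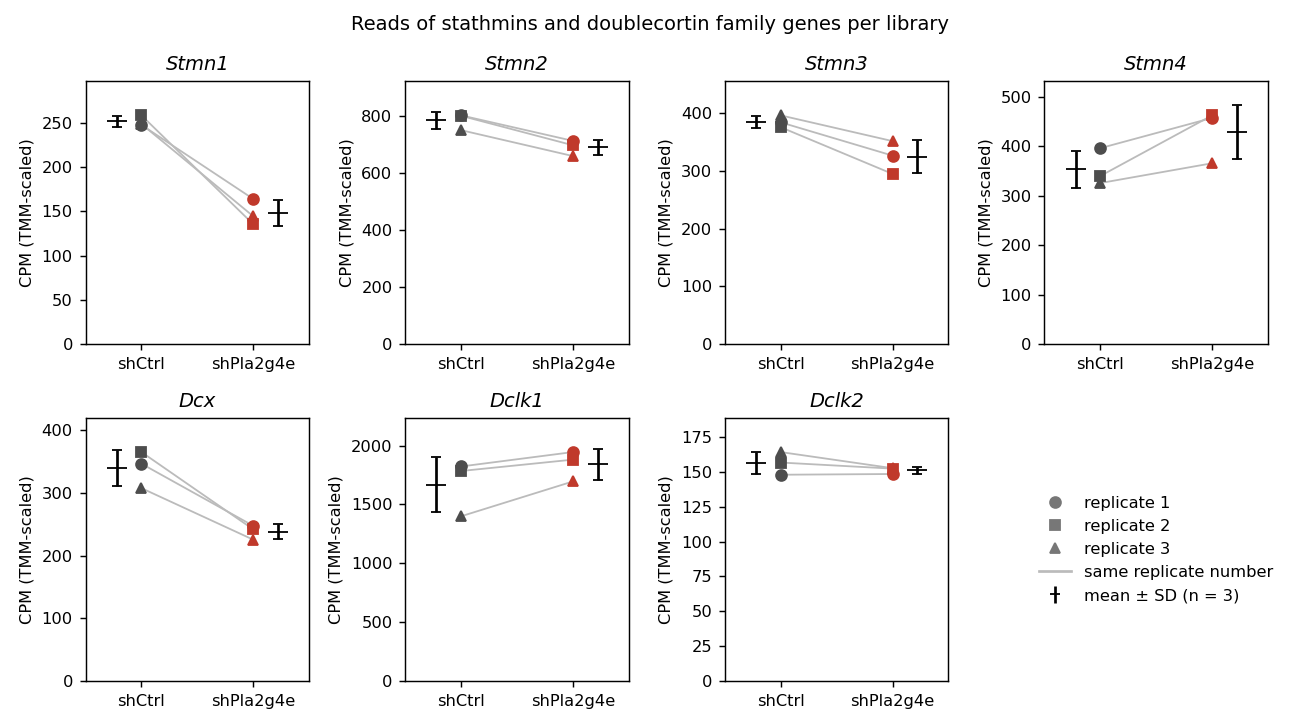
Level of each of the 7 genes in CPM (TMM-scaled, y axis from 0) in the 6 libraries, with symbols for the replicate number, grey lines between libraries of the same number, and the mean ± SD (n = 3) beside each group. For Stmn1 all shPla2g4e libraries lie at or below 164 CPM and all shCtrl libraries at or above 247.6 CPM, and for Dcx the groups are also apart, whereas for Stmn4, Dclk1 and Dclk2 they overlap.

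Stmn1, the cytosolic stathmin and the founding member of the family, showed the largest change of the 7. Its gene lies at GRCm39 chr4:134195631-134201154 on the plus strand. It was at 247.6, 258.4 and 248.6 CPM in shCtrl and at 164.0, 135.4 and 144.4 CPM in shPla2g4e. The lowest control library stood well above the highest silenced one, and the group means were 251.5 ± 5.95 and 147.9 ± 14.6 CPM (SD, n = 3). The log2 fold change was −0.77 (SE 0.084), a level 58.8% of the control (adjusted p = 2.10e-05, edgeR), and the gene ranked 126 by p among the 21876 tested. The drop was seen in each pair of same-numbered libraries, with log2 ratios of −0.59, −0.93 and −0.78. Stmn1 was called under all 14 other settings, at −0.84 to −0.69 on the log2 scale.

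Part of the Stmn1 transcript sequence also occurs elsewhere in the genome. Of the 50-base stretches of its transcripts, 18.9% were found in transcripts of other genes, among them Gm11223. Gm11223 was counted at 86 to 91 reads in the shCtrl libraries and at 36 to 39 reads in the shPla2g4e libraries, beside 5104 to 5600 and 2528 to 3920 reads of Stmn1. How reads of these stretches were divided between the genes was not tested, and the Stmn1 value is uncertain to that extent.

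Stmn2 (SCG10), the growth-cone stathmin of extending and regenerating axons, had the most reads of the 4 stathmins. It lies at GRCm39 chr3:8574420-8626666 on the plus strand. Its levels were 800.8, 799.3 and 749.0 CPM in shCtrl and 711.6, 696.1 and 658.3 CPM in shPla2g4e, and every silenced library was below every control library. The difference was small: the means were 783.0 ± 29.5 and 688.7 ± 27.4 CPM (SD, n = 3), with a log2 fold change of −0.19 (SE 0.077) that did not pass the threshold (adjusted p = 0.138, edgeR). The 3 pairs gave much the same log2 ratio, −0.17, −0.20 and −0.19, and the fit with the replicate number as a block gave an adjusted p of 0.0145 (edgeR), also above the threshold.

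Stmn3 (SCLIP), which is enriched in neurons and acts in axon branching and dendrite growth, lies at GRCm39 chr2:180948252-180956293 on the minus strand. It was at 384.4, 376.0 and 396.5 CPM in shCtrl and at 326.8, 295.1 and 351.9 CPM in shPla2g4e, again without overlap. The means were 385.6 ± 10.3 and 324.6 ± 28.5 CPM (SD, n = 3), and the log2 fold change of −0.25 (SE 0.083) missed the threshold (adjusted p = 0.0594, edgeR). With the replicate block it was −0.25 and passed (adjusted p = 0.00112, edgeR). The log2 ratios of the 3 pairs were −0.23, −0.35 and −0.17.

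Stmn4 (RB3), the remaining membrane-bound stathmin of the brain, had the opposite sign. Its gene lies at GRCm39 chr14:66581745-66599129 on the plus strand. It was at 396.5, 340.2 and 325.9 CPM in shCtrl and at 457.7, 462.9 and 366.0 CPM in shPla2g4e. The silenced replicate 3 fell below the control replicate 1, so the groups overlapped, but each silenced library was above the control library of its own number, with log2 ratios of 0.21, 0.44 and 0.17. The means were 354.2 ± 37.3 and 428.8 ± 54.5 CPM (SD, n = 3). The log2 fold change was 0.28 (SE 0.10; adjusted p = 0.0899, edgeR), and with the replicate block it was 0.27 and passed the threshold (adjusted p = 4.96e-04, edgeR).

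With the block, 3 members were down-regulated and 1 was up-regulated, while 9.02% of all tested genes were down-regulated and 6.50% up-regulated in that fit (edgeR). Both shares were larger in that fit than without the block. The block uses up part of the information on each gene's own spread, so its p-values rest more on the spread shared over genes.

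**Figure D2:**
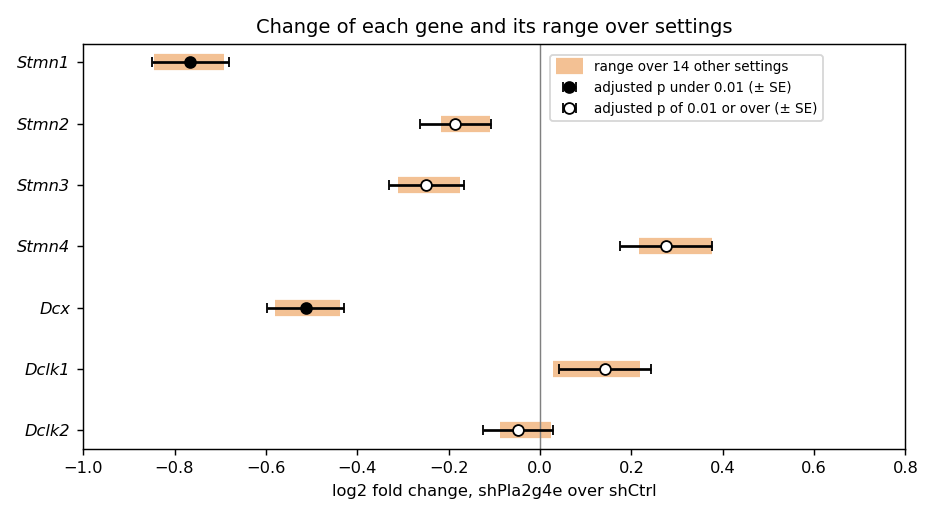
Log2 fold change of each of the 7 genes (shPla2g4e over shCtrl, points with SE bars, filled where the adjusted p is under 0.01), with a band for its range over 14 other settings of the analysis. The bands of Stmn1 and Dcx lie wholly below 0, those of Stmn2 and Stmn3 below 0 without a filled point, that of Stmn4 above 0, and that of Dclk2 spans 0.

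Dcx, doublecortin itself, in which mutations cause lissencephaly and subcortical band heterotopia, was the second member past the threshold. It lies at GRCm39 chrX:142638838-142716307 on the minus strand. Its levels were 346.7, 365.3 and 307.7 CPM in shCtrl and 247.5, 241.9 and 225.4 CPM in shPla2g4e. The control libraries varied more among themselves than the silenced ones, yet no silenced library reached the lowest control, and the means were 339.9 ± 29.4 and 238.3 ± 11.5 CPM (SD, n = 3). The log2 fold change was −0.51 (SE 0.084), a level 70.1% of the control (adjusted p = 7.31e-04, edgeR), and the log2 ratios of the pairs were −0.49, −0.59 and −0.45. Without shCtrl replicate 2 the change was −0.46 and its adjusted p was 0.0119 (edgeR), just above the threshold, and the count of down-regulated members was then 1.

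Dclk1, the kinase that shares DCX domains with Dcx and acts with it in neuronal migration and axon growth, had the most reads of the 7. It lies at GRCm39 chr3:55149785-55446489 on the plus strand. It was at 1823, 1785 and 1400 CPM in shCtrl and at 1946, 1881 and 1696 CPM in shPla2g4e. The control replicate 3 stood below the other 5 libraries, and the groups overlapped. Each silenced library was above the control library of its own number, with log2 ratios of 0.094, 0.076 and 0.277. The log2 fold change was 0.14 (SE 0.10; adjusted p = 0.426, edgeR), and without shCtrl replicate 3 it was 0.03. With the replicate block the adjusted p was 0.0524 (edgeR), also above the threshold. The Dclk1 gene has 11 coding transcripts in the annotation, with and without the DCX domains or the kinase domain, and the counts per gene do not separate them.

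Dclk2, the second doublecortin-like kinase, changed least. It lies at GRCm39 chr3:86693458-86828159 on the minus strand. Its levels were 148.0, 156.7 and 164.2 CPM in shCtrl and 148.5, 152.3 and 152.7 CPM in shPla2g4e, and the means were 156.3 ± 8.14 and 151.2 ± 2.32 CPM (SD, n = 3). Its log2 fold change of −0.05 (SE 0.076) was smaller than its own error (adjusted p = 0.761, edgeR). Its sign turned to 0.02 when libraries were scaled by their totals alone.

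Levels can be compared between genes only per length, for which CPM was divided by the kilobases of exon in each gene. In shCtrl the order was Stmn3 (339 ± 9.07 CPM per kb), Stmn4 (185 ± 19.5), Stmn2 (140 ± 5.26), Stmn1 (131 ± 3.09), Dclk1 (109 ± 15.3), Dcx (26.9 ± 2.32) and Dclk2 (14.8 ± 0.772; SD, n = 3). Stmn2 and Stmn1 at these lengths overlapped, with 133.7 CPM per kb in the lowest Stmn2 library and 134.4 in the highest Stmn1 library, and no other neighbours in this order did. All 4 stathmins stood among the 180 genes of highest level per length in shCtrl, Stmn3 at rank 41, and Dcx was at rank 1833. In shPla2g4e the order was the same except that Dclk1 (120 ± 8.48 CPM per kb) stood above Stmn1 (77.0 ± 7.59).

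The length chosen moved Stmn2 most. The exons of its gene sum to 5602 bases, while its longest coding transcript has 2073 bases, and per kilobase of that transcript Stmn2 was first at 378 ± 14.2 CPM in shCtrl, followed by Stmn3 at 339 ± 9.07, Stmn4 at 260 ± 27.4 and Stmn1 at 237 ± 5.61 (SD, n = 3). Stmn4 and Stmn1 differed by less than the SD of Stmn4 on this scale. Dcx (37.5 ± 3.24) and Dclk2 (19.4 ± 1.01) remained the lowest 2 under both lengths.

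**Figure D3:**
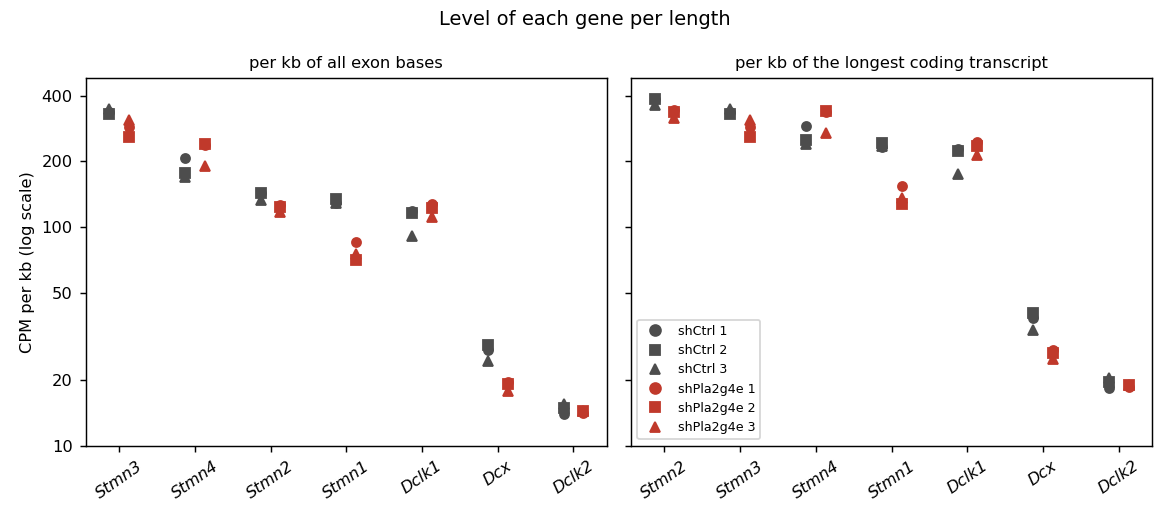
Level of each gene in CPM per kilobase on a log axis, per kilobase of all exon bases (left) and of the longest coding transcript (right), with 1 symbol per library, genes in falling order of the shCtrl mean. Stmn3 leads at 339 on the left and Stmn2 at 378 on the right, and Dcx and Dclk2 lie lowest in both.

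Within a library, the makeup of the stathmins does not depend on scaling between libraries. Stmn1 made up 15.8%, 17.1% and 16.5% of the summed stathmin level per kilobase of exon in shCtrl and 11.5%, 10.1% and 10.8% in shPla2g4e, a difference of −5.64 percentage points. Stmn4 made up 25.3%, 22.6% and 21.7% in shCtrl and 32.3%, 34.7% and 27.5% in shPla2g4e, a difference of 8.30 points. The groups did not overlap for either share, and each exact two-sided permutation p was 0.1, the smallest that 3 against 3 libraries can give (0.2 after Benjamini-Hochberg adjustment over the 4 shares). The 4 shares of a library add up to the whole, so a fall in 1 raises the others and the 4 tests are not independent. In CPM, Stmn4 overlapped between the groups, and its share holds both its own change and the fall of the others. The shares of Stmn2 (17.6% ± 0.539 and 17.3% ± 0.468; exact permutation p = 0.6) and Stmn3 (42.7% ± 1.68 and 40.3% ± 3.86; SD, n = 3, exact permutation p = 0.5) overlapped between the groups. These tests do not use the pairing by replicate number: the Stmn2 share was lower in the silenced library of all 3 pairs (17.5% and 17.2%, 18.2% and 17.9%, 17.1% and 16.9%), and that of Stmn3 in 2 of the 3. The Stmn3 difference of −2.41 points was −0.92 without shPla2g4e replicate 2, −4.60 without shPla2g4e replicate 3, −1.29 without division by length and −1.28 with the longest coding transcript as the length. The sum over the 4 stathmins was 817, 786 and 782 CPM per kb in shCtrl and 739, 696 and 693 in shPla2g4e. The sum over Dcx, Dclk1 and Dclk2 was 161, 160 and 131 CPM per kb in shCtrl and 161, 157 and 143 in shPla2g4e, most of it Dclk1.

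**Figure D4:**
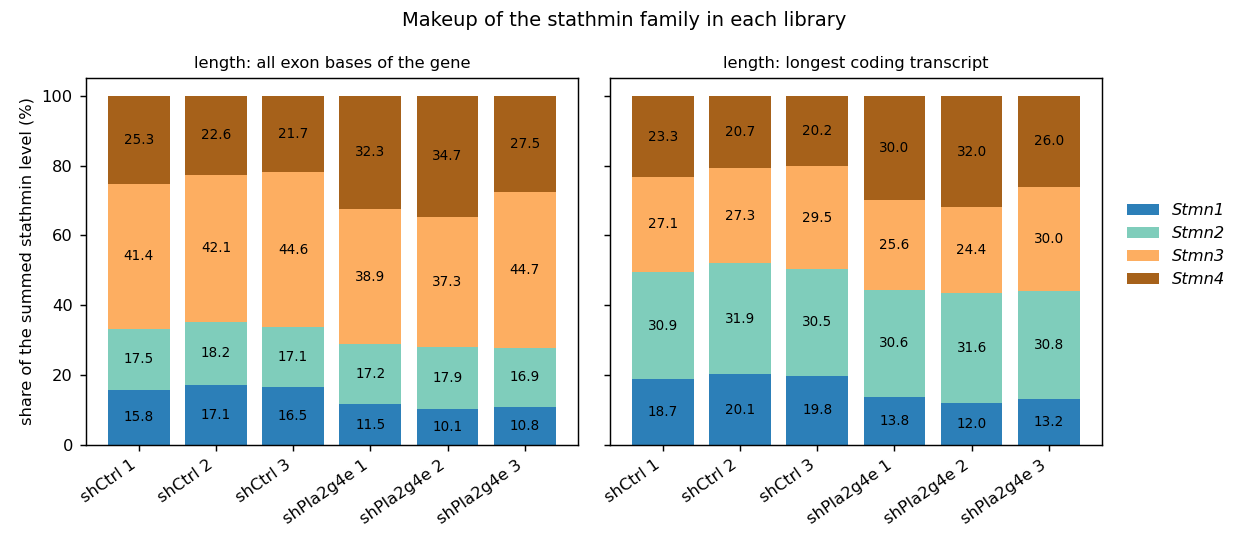
Percent of the summed stathmin level (CPM per kilobase) taken by each of the 4 genes in each library, with all exon bases of the gene as the length (left) or the longest coding transcript (right). In both panels the Stmn1 bar is smaller in the 3 shPla2g4e libraries (10.1% to 11.5% on the left) than in the 3 shCtrl libraries (15.8% to 17.1%), and the Stmn4 bar is larger.

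Members resemble each other in sequence. Coding sequences of the stathmins were identical at 68.4% (Stmn3 and Stmn4) to 73.5% (Stmn2 and Stmn3) of aligned bases, and those of Dcx, Dclk1 and Dclk2 at 68.5% to 70.4%. No 50-base stretch of Stmn3, Stmn4 or Dclk2 occurred in another gene, and the share was 0.893% for Stmn2, 0.204% for Dcx and 0.271% for Dclk1. A gene on the same strand, with 0 to 2 reads per library, overlaps 3.43% of the Stmn1 exon bases, and exons of genes on the other strand overlap 0.745% of the Dclk1 exon bases.

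The 7-base match to the hairpin's seed, GTGGCCA, was searched for on the transcript strand of the members. The part of seed pairing in any member's level was not tested. It was in the 3′ untranslated region (UTR) of 2 of the 7 members, Stmn4 and Dclk1. Among 15648 genes, 13.4% had it in that region, taking the coding transcript of greatest length, and among 3′ UTRs within 20% of the member's length the share was 6.44% for Stmn4 and 35.3% for Dclk1. Stmn1 held 1 match in its 5′ UTR and none in its 3′ UTR, and Stmn2, Stmn3, Dcx and Dclk2 held none in any region. The share among 3′ UTRs of like length was 4.44% for Stmn1, 12.2% for Stmn2, 3.58% for Stmn3, 44.3% for Dcx and 38.1% for Dclk2. No member held it in coding sequence, where 25.3% of 15816 genes did. Capitals mark the match in the windows below, from transcripts of the GRCm38 annotation.
Stmn1 5′ UTR, chr4:134468404-134468410: gtgctcagagtGTGGCCAggcggctcgga
Stmn4 3′ UTR, chr14:66361248-66361254: gggggagggggGTGGCCAaggggcgtttc
Dclk1 3′ UTR, chr3:55535697-55535703: taaaacaccctGTGGCCAagagcagattg
The Stmn4 match is in 4 of its 6 coding transcripts, and Dclk1 has 3′ UTR matches in 7 of its 11. The Dclk1 window shown is the match in its longest coding transcript. Further 3′ UTR matches of Dclk1, at chr3:55468733-55468739 and chr3:55469687-55469693, lie outside that transcript. The longest run that any member shares with the 19-base target was 7 to 9 bases.

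Other genes with DCX domains were measured at low levels. Of 6 such genes, 5 were tested and 0 passed the threshold at 0.01 (edgeR; 6.49% of all tested genes did). The up-regulated count was 1 with DESeq2, without shCtrl replicate 1 or shPla2g4e replicate 3, with scaling by library totals, without the filter and at an adjusted p of 0.05. With the replicate block it was also 1, where 6.50% of all tested genes were up-regulated. It was 0 with limma after voom and with each other omission of 1 library. Dclk3, the third doublecortin-like kinase, was at 24.01, 17.01 and 19.7 CPM in shCtrl and at 29.9, 31.3 and 24.6 CPM in shPla2g4e, without overlap, and its log2 fold change of 0.50 (SE 0.13) had an adjusted p of 0.0191 (edgeR) and of 1.09e-04 with the replicate block. Dcdc2a, Dcdc2b, Dcdc2c and Rp1 were at or below 7.07 CPM on average in both groups, with adjusted p from 0.303 to 0.955 (edgeR). Rp1l1, a photoreceptor gene, reached at most 2 reads and was not tested.

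Kinases and phosphatases that act on stathmins and doublecortin, with their subunits and scaffolds, formed a list of 24 genes, all tested. Of these 9 were down-regulated and 0 up-regulated (edgeR; 4.0% and 2.48% of all tested genes, 7.61% and 3.32% of the well-expressed ones), 17 were lower and 7 higher, and their median log2 fold change was −0.17. Camk4, a calmodulin-dependent kinase known to phosphorylate Stmn1, fell from 110.1 ± 8.61 to 56.0 ± 9.36 CPM (SD, n = 3; log2 fold change −0.97, SE 0.11, adjusted p = 2.29e-05, edgeR). Ppp2r2c, a regulatory subunit of protein phosphatase 2A, fell from 440.5 ± 34.2 to 231.4 ± 5.69 CPM (log2 fold change −0.93, SE 0.081, adjusted p = 2.84e-06, edgeR). Uhmk1 (KIS), another stathmin kinase, fell by 0.60 on the log2 scale, and Mapk8ip2, a scaffold of the JNK kinases that phosphorylate stathmins and Dcx, fell by 0.46 (adjusted p = 6.02e-04 and 0.00134, edgeR). The count of 9 fell to 5 without shCtrl replicate 1, to 3 without shCtrl replicate 2, to 5 without shPla2g4e replicate 1 or 2, and was 6 when libraries were scaled by their totals alone. Under the block by replicate number 11 were down-regulated (9.02% of all tested genes) and 1 was up-regulated (6.50%), Prkacb, a catalytic subunit of protein kinase A named after its values were seen (log2 fold change 0.23; adjusted p = 0.00231 with the block, edgeR).

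Of 14 further genes of lissencephaly and neuronal migration, 11 were lower, 2 were down-regulated and 0 up-regulated (edgeR; 4.0% and 2.48% of all tested genes, 7.61% and 3.32% of the well-expressed ones), and the median log2 fold change was −0.23. Dab1, the adaptor of reelin signalling, was at 134.7, 130.9 and 131.2 CPM in shCtrl and 74.2, 75.1 and 83.8 CPM in shPla2g4e, a log2 fold change of −0.77 (SE 0.079; adjusted p = 1.17e-05, edgeR). Reln, reelin itself, fell by 0.45 (adjusted p = 0.00944, edgeR), and Flna, an actin-binding protein, had a log2 fold change of −0.53 that missed the threshold (adjusted p = 0.0109, edgeR). With the replicate block Flna passed (adjusted p = 3.32e-10, edgeR). The count of 2 was 1 without shCtrl replicate 2 or shPla2g4e replicate 2, with edgeR's own filter on low counts (filterByExpr) and with scaling by library totals. With the replicate block 7 of the 14 were down-regulated and 1 was up-regulated, where 9.02% and 6.50% of all tested genes were. Among 21 genes that bind microtubule ends, sever microtubules or fold tubulin, 17 were lower, 3 were down-regulated and 0 up-regulated (edgeR; median −0.19), beside 4.0% down-regulated over all tested genes and 7.61% over the well-expressed ones. These were Mapre2, a plus-end binding protein, Camsap1, a minus-end binding protein, and Kif2a, a microtubule-depolymerizing kinesin, with log2 fold changes of −0.42, −0.40 and −0.40 (adjusted p = 0.00399, 0.00573 and 0.00265, edgeR). None of the 21 was called by edgeR when shCtrl replicate 1, shCtrl replicate 2, shPla2g4e replicate 1 or shPla2g4e replicate 2 was left out, and 1 was without shPla2g4e replicate 3. With the replicate block 7 of the 21 were down-regulated and 0 up-regulated, where 9.02% and 6.50% of all tested genes were.

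Of 13 genes listed as regulators of Stmn2, 1 was down-regulated and 0 up-regulated (edgeR), a share near the 7.61% of well-expressed genes that were down-regulated, and the median log2 fold change was −0.02. That gene was Elavl2, a neuronal RNA-binding protein, which fell by 0.44 on the log2 scale (adjusted p = 0.00992, edgeR). The call was lost, and the count was 0, without shCtrl replicate 1 or 2, without shPla2g4e replicate 1 or 2, with filterByExpr and with scaling by library totals. The count was 2 without shCtrl replicate 3 and with DESeq2, and 3 without the filter. With the replicate block 3 were down-regulated and 0 up-regulated, where 9.02% and 6.50% of all tested genes were. Celf2, Elavl3 and the palmitoyl transferase gene Zdhhc3 had log2 fold changes of −0.30, −0.30 and −0.21 and adjusted p of 0.0264, 0.0432 and 0.131 (edgeR), and with the replicate block Celf2 and Elavl3 passed (adjusted p = 8.31e-05 and 8.20e-05). Tardbp, which encodes the RNA-binding protein TDP-43 and is named outside the rule for this list, was at 197.0 ± 10.4 CPM in shCtrl and 205.6 ± 10.6 CPM in shPla2g4e (SD, n = 3; log2 fold change 0.06, adjusted p = 0.697, edgeR).

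**Figure D5:**
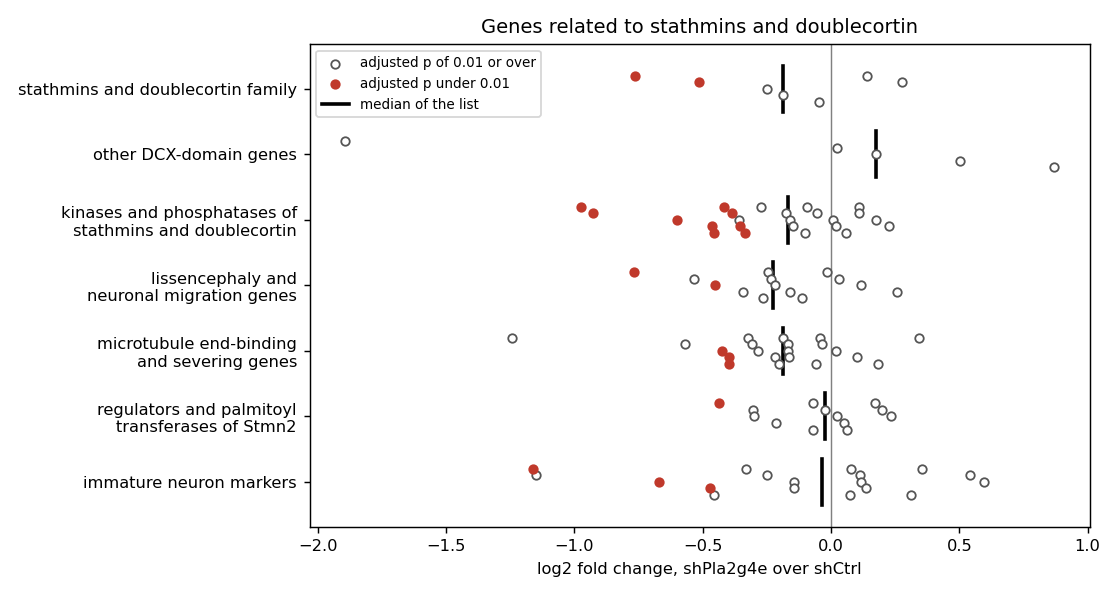
Log2 fold change (shPla2g4e over shCtrl) of every tested gene in the 7 members and 6 related lists, red where the adjusted p is under 0.01 (edgeR), with a bar at the median of each list. All red points lie left of 0 and none lies right of it, and the medians run from −0.23 for the migration genes to 0.18 for the other DCX-domain genes.

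Dcx and Stmn1 mark young neurons, and markers of cell state were read beside them. Of 18 markers of immature neurons, 9 were lower and 9 higher, 3 were down-regulated and 0 up-regulated (edgeR; 4.0% and 2.48% of all tested genes). Their median log2 fold change was −0.03, beside 0.03 for all tested genes, and their sum was 3426 to 4066 CPM in shCtrl and 2773 to 3127 CPM in shPla2g4e. The 3, named after their values were seen, were Marcksl1 (log2 fold change −1.16, the lowest of the list), Nrep (−0.67) and Neurod6 (−0.47), and the count was 2 without shCtrl replicate 2 or shPla2g4e replicate 2 and 5 without shCtrl replicate 3. Of the 18, 5 were down-regulated in the blocked fit and 1 was up-regulated, where 9.02% and 6.50% of all tested genes were. Nhlh1 had the highest fold change, 0.60, at about 1.03 CPM in shPla2g4e (adjusted p = 0.50, edgeR). Markers of mature neurons moved in both directions: 5 of 15 were down-regulated and 2 up-regulated (4.0% and 2.48% of all tested genes; 2 and 1 without shCtrl replicate 2), with Slc17a7 (the vesicular glutamate transporter VGLUT1) at −1.31 and Nefm, a neurofilament subunit, at 0.68. In the blocked fit 6 of the 15 were down-regulated and 3 up-regulated (9.02% and 6.50% of all tested genes). Of the 10 markers of progenitors and proliferation, 1 was down-regulated, Top2a (−1.0; adjusted p = 0.00613, edgeR), and 0 up-regulated (4.0% and 2.48% of all tested genes). With the replicate block 2 were down-regulated and 0 up-regulated, where 9.02% and 6.50% of all tested genes were. The sum was 424 to 578 CPM in shCtrl and 377 to 604 CPM in shPla2g4e. Its largest part was Vim, named after its values were seen, at 277.6 ± 51.1 CPM in shCtrl and 273.9 ± 72.2 CPM in shPla2g4e (SD, n = 3). The lowest fold change of that list was that of Mki67, a proliferation marker (−1.13; adjusted p = 0.0148, edgeR, and 1.51e-08 with the replicate block), and the highest was that of Hes5 (0.71; adjusted p = 0.178). The other cell-cycle genes of the list, Cdk1 and Ccnb1, named after their values were seen, were at −0.77 and −0.72 (adjusted p = 0.0641 and 0.249, edgeR). In bulk RNA, fewer cells of a type and less RNA per cell cannot be told apart, and the part of these markers in the Stmn1 and Dcx results was not tested.

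Of the astrocyte markers, 3 of 10 were down-regulated and 0 up-regulated (4.0% and 2.48% of all tested genes), with Aqp4 the lowest at −1.19 and S100b the highest at 1.11 (adjusted p = 8.53e-04 and 0.0211, edgeR). With the replicate block 7 of the 10 were down-regulated and 1 up-regulated, where 9.02% and 6.50% of all tested genes were. Microglial markers summed to 22.3 to 30.7 CPM in shCtrl and 24.8 to 25.5 CPM in shPla2g4e, with 0 of 8 tested genes called and the other 2 genes of the list at no more than 4 reads. Oligodendrocyte lineage markers summed to 572 to 648 and 588 to 724 CPM and endothelial and mural markers to 21.4 to 28.8 and 22.6 to 31.4 CPM, with 0 of 10 and 0 of 8 called. With the replicate block 1 oligodendrocyte marker, Olig2, was down-regulated and 1 endothelial marker, Kdr, was up-regulated (adjusted p = 5.28e-04 and 8.91e-05, edgeR), both named after their values were seen. Stmn1 is also expressed by dividing glial precursors, and how much of it came from neurons was not tested.

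By profile over the 6 libraries, the genes closest to Stmn1 were Grk5, a G protein-coupled receptor kinase, and Lypd6, a modulator of nicotinic receptors. Likeness was the root mean square difference between log2 CPM profiles centred on their means, among the same 10908 well-expressed genes, and it was 0.0658 and 0.0664 for this pair, while Stmn1 itself ranged over 0.932 log2 units. For Dcx they were Fxyd7, a regulator of the sodium pump, at 0.0275, and Srgap1, a GTPase-activating protein, at 0.0288. The genes closest to Stmn2 were Relch and Cul5, to Stmn3 Camk1 and Klhl5, to Stmn4 Pabpc1 and Slc6a15, to Dclk1 Rab2b and Gtf3c4, and to Dclk2 Zfp280c and Prdx2. No member was among the nearest genes of another.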

How the data were processed

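RNA from the 6 cultures was extracted on a Maxwell RSC instrument and made into libraries with the TruSeq Stranded mRNA kit. The deposited values are read counts per gene: the authors ran FastQC 0.11.8, STAR 2.7.0d and featureCounts 1.6.0 over exons, and the file headers record no strand and no read-pair option. The headers name an annotation of GRCm39, the build of the coordinates given for genes, whereas the study's methods name mm10. Symbols were matched for 52081 of 55357 gene identifiers through a GENCODE table of GRCm38, and transcript sequences came from the same release. Counts carry no unassigned columns.

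Genes that reached 6 reads in any 1 library were tested in R 4.3.3 with edgeR 4.0.16 (TMM, quasi-likelihood fit, Benjamini-Hochberg over 21876 genes, threshold 0.01). The study used limma after voom, which was run as an alternative (limma 3.58.1) beside DESeq2 1.42.0, other scalings and filters, the replicate block and the omission of each library. Scripts were tested on simulated counts. The members and gene lists were chosen with earlier results of these data known. Genes named are the 7 members, Pla2g4e, the 4 of smallest p in each related list, all tested DCX-domain genes, the highest and lowest fold change of each marker list with any of its genes at 0 reads, and the 2 nearest profiles per member. Some genes that this rule names are not reported here, Gm11223 is named for the sequence it shares with Stmn1, and other genes named outside the rule are marked as such.

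Replicate numbers come from the sample titles. Between same-numbered libraries, residuals around the group averages correlated at 0.392, 0.189 and 0.461, against −0.393 to 0.108 for other pairings (10908 genes), so the numbers were taken to pair the libraries. Replicates of a group differed by more than sampling noise (mean chi-square per gene 6.03 to 15.4), so none was counted as a repeat of another.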

Additional observations from a re-analysis of the deposited data

How the results depend on the processing

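Stmn1, Stmn2, Dclk1 and the knockdown of Pla2g4e kept their direction and their side of the threshold under all 14 alternatives. The alternative at an adjusted p of 0.05 is the main fit itself, so for Stmn1 and Pla2g4e its outcome was fixed. With the replicate block, Stmn3 (−0.25) and Stmn4 (0.27) passed the threshold, the members up-regulated numbered 1, and 3395 genes were called in place of 1419; among the members and Pla2g4e the block changed no other call. Leaving out 1 library at a time gave log2 fold changes of −0.58 to −0.46 for Dcx, −0.84 to −0.71 for Stmn1, 0.03 to 0.21 for Dclk1, 1 to 2 down-regulated members and 695 to 1613 called genes. Without shCtrl replicate 2 Dcx was at −0.46 and no longer passed, only Stmn1 was still called among the members, and the Stmn2 share rose by 0.0371 percentage points instead of falling by 0.252; the cause was not tested. Scaling by library totals alone turned Dclk2 to 0.0247, and 609 genes were then down-regulated and 796 up-regulated (43.3% of calls down, 61.7% in the main fit). The number of called genes was 2349 without the filter and 2813 at an adjusted p of 0.05. Without division by length the shares of Stmn1 and Stmn2 changed by −4.89 and −0.808 points, and with the longest coding transcript as the length, chosen after seeing the data, those of Stmn1 and Stmn2 changed by −6.55 and −0.115. Over single omissions the share of Stmn1 changed by −5.99 to −5.28 points and that of Stmn2 by −0.513 to 0.0371. DESeq2 gave no adjusted p for 5514 genes. Each member had at least 2528 reads in every library.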
